A study of Mus musculus with 16 samples.

Results

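The mitochondrial respiratory chain genes were taken as the array features whose annotated symbol begins with Nduf, Uqcr, Cox4 to Cox8 or Atp5, or is Sdha, Sdhb, Sdhc or Sdhd. The rule found 134 features of 89 genes among the 20725 genes measured. By the prefix of the listed symbol, 41 genes were assigned to complex I, 4 to complex II, 8 to complex III, 19 to complex IV and 17 to complex V. Where a gene had several features, the brightest on average was used. The samples were total RNA of alveolar epithelial type II (AT2) cells, the surfactant-making cells of the lung alveolus, from mouse pups at postnatal day 3. Wild-type pups and pups heterozygous for Fgf10 (Fgf10+/-) were compared, kept either in normoxia or in 85% oxygen from day 0 to day 3. Sample titles gave 4 wild-type normoxia, 6 wild-type hyperoxia, 4 Fgf10+/- normoxia and 2 Fgf10+/- hyperoxia samples, whereas the series text gave 4 per group, and the titles were followed. The strain, the allele's structure, the isolation of the cells and any pooling of pups were not stated in the labels read, nor is it said whether replicates were separate animals. Every p-value therefore measures the spread between these samples, which may be technical.

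The respiratory chain passes electrons from NADH (complex I) and succinate (complex II) through complex III to oxygen at complex IV, and ATP synthase (complex V) uses the proton gradient that results. Most subunits are encoded in the nucleus, and a small set of core subunits of complexes I, III, IV and V is encoded in mitochondrial DNA (mtDNA). In the lung, AT2 cells depend on mitochondrial ATP for surfactant production, and several complex IV subunits have tissue-specific isoforms, among them the lung and hypoxia isoform Cox4i2.

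All values are log2 intensities, and a difference is hyperoxia minus normoxia, or Fgf10+/- minus wild type, of group means. Most member genes differed little. In wild type 83 of 89 members lay within 0.5 of 0, or 93.3%, against 77.1% of all genes. By limma with Benjamini-Hochberg adjustment over all genes, 1 member was called at an adjusted p under 0.05 in wild-type hyperoxia, the ATP synthase c-subunit gene Atp5g2, which fell. In Fgf10+/- hyperoxia no member was called, and none was called between genotypes. Of all genes 3.13% were called in wild-type and 2.45% in Fgf10+/- hyperoxia. The mtDNA-encoded genes, which the rule does not hold, had higher hyperoxia values in 11 of 11 (median difference 0.47) in wild type and in 10 of 11 (median 0.42) in Fgf10+/-, and 1 of them, ND1, passed the test and rose in each.

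4 member promoters from RefSeq (GRCm38.p6, 250 bases before to 50 after the annotated start) are shown, of complex V genes whose normoxia and hyperoxia values did not overlap in either genotype. Cox4i1 and Ndufb7, of other complexes, were also without overlap in both and are not shown. Capitals mark matches on either strand to the cores of NRF1 (GCGCANGCG) and of the ETS factor GABP (CCGGAAG), known regulators of respiratory chain genes, and to the hypoxia response core (ACGTG). Atp5g2 lies at chr15:102670998-102671297 on the minus strand, Atp5d at chr10:80142025-80142324 on the plus strand, Atp5l at chr9:44920693-44920992 on the minus strand and Atp5h at chr11:115419870-115420169 on the minus strand.
Atp5g2: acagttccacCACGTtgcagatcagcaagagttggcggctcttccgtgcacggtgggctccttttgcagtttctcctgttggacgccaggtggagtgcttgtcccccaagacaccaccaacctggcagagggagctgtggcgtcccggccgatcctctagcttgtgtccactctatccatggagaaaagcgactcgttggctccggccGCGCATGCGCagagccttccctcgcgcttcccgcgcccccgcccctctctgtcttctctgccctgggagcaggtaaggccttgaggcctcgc
Atp5d: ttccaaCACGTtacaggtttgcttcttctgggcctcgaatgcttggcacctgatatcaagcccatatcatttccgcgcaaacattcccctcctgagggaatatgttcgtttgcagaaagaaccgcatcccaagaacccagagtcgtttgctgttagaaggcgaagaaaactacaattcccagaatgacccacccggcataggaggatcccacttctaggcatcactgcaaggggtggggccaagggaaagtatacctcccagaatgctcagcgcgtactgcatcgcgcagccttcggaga
Atp5l: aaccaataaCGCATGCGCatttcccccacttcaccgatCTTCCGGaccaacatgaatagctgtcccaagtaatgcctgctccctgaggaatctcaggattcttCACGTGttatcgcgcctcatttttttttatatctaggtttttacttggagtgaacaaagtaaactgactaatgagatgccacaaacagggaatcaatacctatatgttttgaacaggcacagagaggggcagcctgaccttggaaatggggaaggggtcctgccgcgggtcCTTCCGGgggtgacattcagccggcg
Atp5h: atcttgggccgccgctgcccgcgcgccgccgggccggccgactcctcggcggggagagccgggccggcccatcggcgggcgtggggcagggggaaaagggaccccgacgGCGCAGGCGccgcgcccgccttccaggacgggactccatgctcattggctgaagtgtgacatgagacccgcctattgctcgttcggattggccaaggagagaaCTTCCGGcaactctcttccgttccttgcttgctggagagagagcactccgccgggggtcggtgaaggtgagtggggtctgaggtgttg

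In Atp5g2 a palindromic NRF1 match, read on both strands, lay 42 bases and a hypoxia response core 240 bases before the start, and Atp5h had an NRF1 match 141 bases and an ETS match 38 bases before it. Atp5l had an NRF1 match 241 bases before, ETS matches 212 bases before and 25 bases after, and a hypoxia response core 147 bases before the start, read on both strands. In Atp5d, which has 2 annotated starts of which the first is shown, the search found only a hypoxia response core, 244 bases before the start. The genes with lower and with higher values in hyperoxia are both represented among promoters with an NRF1 match. The table held promoters of 74 members. NRF1 cores were in 27.0% of them against 6.47% of all 27025 promoters, ETS cores in 21.6% against 9.12%, YY1 cores (AAGATGGC) in 13.5% against 2.88%, and hypoxia response cores in 27.0% against 19.7%. At least 1 of the NRF1, ETS and YY1 cores was in 39 member promoters, or 52.7%, against 16.5% of all, and the median number of CpG dinucleotides was 19.5 against 7. The motifs were chosen after the values had been seen, and a match is a description of letters, not a site.

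The AT2 label was set against its markers. Sftpc, the surfactant protein C gene, lay between 15.95 and 15.98 in all groups, at the top of the array's range of -0.40 to 15.98, and the array mean of 12 AT2 markers ranged from 10.40 to 11.80. Of these markers, 10 were lower in hyperoxia in each genotype (median differences -0.47 in wild type and -0.35 in Fgf10+/-), and 10 were lower in Fgf10+/- than in wild-type hyperoxia (median -0.28), none called. Markers of other cells were present in unequal amounts. The mean of 13 smooth muscle and pericyte markers was 8.31 in wild-type normoxia replicate 1 against 6.04 to 6.47 in the other 3, 6.91 to 7.90 in wild-type hyperoxia, 5.84 to 6.58 in Fgf10+/- normoxia and 7.15 and 7.11 in Fgf10+/- hyperoxia. The mean of 14 thymocyte and T cell markers was 7.36 in wild-type normoxia replicate 4 and 6.31 to 7.31 in Fgf10+/- normoxia replicates 1, 2 and 4, against 4.54 to 5.76 in the other 12 arrays. All 14 were lower in wild-type hyperoxia and 13 in Fgf10+/-, none called. Of 10 endothelial markers 9 were higher in hyperoxia in wild type (median 0.46) and 9 in Fgf10+/- (median 1.14, 3 called), and all 10 were lower in Fgf10+/- than in wild-type normoxia (median -0.82). The 8 club and secretory markers were all lower in hyperoxia (medians -0.99 and -2.46, none called), with array means of 8.72 to 13.59, and all 10 alveolar type I markers were higher in Fgf10+/- in normoxia (median 0.50) and in hyperoxia (median 0.61), none called. The part of these markers in the member results was not tested, except that the smooth muscle and the thymocyte marker means were used as covariates. In these bulk samples fewer cells of a type and less RNA per cell cannot be told apart. Fgf10 itself was dim, at 4.74 ± 0.77 (SD, n = 4) in wild-type and 4.42 ± 0.36 (n = 4) in Fgf10+/- normoxia, and does not check the genotype labels.

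Of the 89 members, 85 had a mean of at least 6, or 95.5%, against 40.0% of all genes. The 4 dimmer ones were the isoforms Cox8b, Cox8c and Cox7b2 and the assembly gene Dmac2l, and no detection call came with the values. 4 listed symbols have since changed: Atp5f1 is now Atp5pb, Atp5sl is Dmac2, Atp5s is Dmac2l, and Cox4nb is Emc8, a subunit of an endoplasmic reticulum complex and no respiratory chain gene, which the rule keeps. Because complexes were assigned by prefix alone, Dmac2 and Dmac2l count in complex V, Emc8 in complex IV and Ndufa4 in complex I. Which complex each protein acts in was not checked. In 10 members RefSeq lists a pseudogene named after the gene, Atp5l among them, so their values may include a near-identical copy.

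Exposure of wild-type pups to 85% oxygen was compared first. Across the 89 members 49 differences were positive and 40 negative, with a median of 0.04 against -0.08 over all genes. Positive were 41.69% of all genes and 40.98% of genes with a mean of at least 6. The call rate was 1 of 89, where 3.13% of all genes were called and 1.36% were called lower. At an unadjusted p under 0.05 there were 11 members, 4 higher and 7 lower, or 12.4% against 18.2% of all genes. Of the 8299 genes with a mean of at least 6, as most members have, 2215 were under 0.05. Among these 8299, 250 were called higher and 224 lower. The 95% interval of a member's difference had a median half-width of 0.35. At that half-width a smaller difference does not reach an unadjusted p of 0.05 by limma. A call after adjustment needed a larger difference still.

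**Figure D1:**
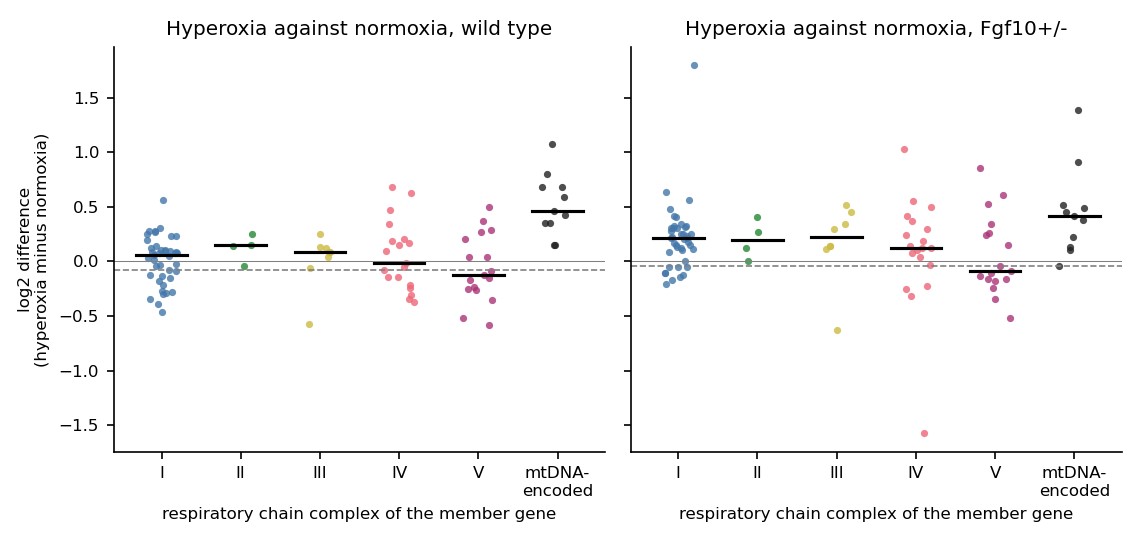
Log2 difference (hyperoxia minus normoxia) of each of the 89 member genes, by complex, and of 11 mtDNA-encoded genes, in wild type (left) and Fgf10+/- (right). Each point is 1 gene, black bars are medians and the dashed line is the median of all 20725 genes. In wild type the medians of complexes I to V lie between -0.13 and 0.15 and that of the mtDNA-encoded genes at 0.47.

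ATP synthase, complex V, held the 1 called member. It also held 4 of the 6 members whose groups did not overlap in the same direction in both genotypes, as in 4.84% of all genes. Atp5d and Atp5g2 were lower and Atp5h and Atp5l higher. Of its 17 genes 7 were positive and 10 negative in wild type, with a median of -0.13. When the fit carried the array mean of the thymocyte markers, the complex V median was 0.02 in wild type and 0.14 in Fgf10+/- (-0.09 without it). Atp5g2, 1 of 3 genes that encode the same mature c subunit of the membrane rotor, read 13.44, 13.26, 13.34 and 13.42 in the wild-type normoxia samples and from 12.62 to 12.93, with a median of 12.80, in the 6 hyperoxia samples. Every hyperoxia sample lay below every normoxia sample. Atp5g2 fell by 0.58 (SE 0.14, 95% interval -0.88 to -0.29, limma with Benjamini-Hochberg adjusted p = 0.0305). In Fgf10+/- it read 13.22, 13.52, 13.27 and 13.35 in normoxia and 12.79 and 12.86 in hyperoxia, again without overlap, a difference of -0.52 (limma adjusted p = 0.169). A second Atp5g2 feature differed by -0.35 in wild type and -0.29 in Fgf10+/-. The call was narrow: in the fits that left out 1 sample the difference was -0.62 to -0.55, and it did not pass in 7 of 16, which were those without any 1 of wild-type normoxia replicates 1 to 4 (adjusted p = 0.0701, 0.068, 0.0557 and 0.0865 by limma) or hyperoxia replicates 1, 2 and 6 (0.0606, 0.0646 and 0.0648). Median centring gave -0.47 and an adjusted p of 0.0734.

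The other 2 genes of the c subunit did not pass the test, and their differences had opposite signs. Atp5g1 had means of 11.42 ± 0.27 (SD, n = 4) and 11.08 ± 0.07 (n = 6) in wild type, a difference of -0.35 (limma adjusted p = 0.268), with overlapping groups. Atp5g3 was at 11.62 ± 0.39 (n = 4) and 11.90 ± 0.18 (n = 6), a difference of 0.29 (adjusted p = 0.454), and in Fgf10+/- it was higher by 0.53 in hyperoxia (adjusted p = 0.302), with 11.92 and 12.02 above a normoxia range of 11.19 to 11.66.

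Atp5d, the delta subunit of the central stalk, showed the next clearest lower value. It read 10.84, 10.85, 10.76 and 10.93 in wild-type normoxia and 10.09 to 10.45 with a median of 10.35 in hyperoxia, without overlap. The difference of -0.52 had an adjusted p of 0.0637 by limma and did not pass. In Fgf10+/- the values were 10.85, 10.98, 10.49 and 10.68 against 10.47 and 10.33, a difference of -0.35 (adjusted p = 0.405), and here the lowest normoxia sample stood only just above the higher hyperoxia sample.

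Atp5l and Atp5h, which encode the g subunit of the membrane part and the d subunit of the peripheral stalk, were higher. Atp5l read 12.29, 12.32, 11.995 and 12.37 in wild-type normoxia and 12.48 to 12.99, with a median of 12.77, in hyperoxia. Its groups did not overlap, and the difference of 0.50 missed the threshold (limma adjusted p = 0.12). In Fgf10+/- the normoxia values of 11.74, 12.26, 12.33 and 12.11 lay below 12.94 and 12.98 in hyperoxia, a difference of 0.85 (95% interval 0.38 to 1.32, adjusted p = 0.0546). All 5 other Atp5l features were also higher, by 0.05 to 0.41 in wild type and 0.33 to 0.52 in Fgf10+/-.

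For Atp5h the wild-type normoxia values were 12.38, 12.27, 12.12 and 12.38, and the 6 hyperoxia values ran from 12.45 to 12.76 with a median of 12.70. Fgf10+/- samples read 12.003, 12.34, 12.32 and 12.24 in normoxia and 12.77 and 12.90 in hyperoxia. Neither pair of groups overlapped, with differences of 0.37 (limma adjusted p = 0.183) and 0.61 (adjusted p = 0.118). A second Atp5h feature of nearly the same mean (12.477 against 12.481) gave -0.30 in wild type and -0.03 in Fgf10+/-, so the direction of Atp5h depends on the feature taken. The catalytic subunit Atp5b was at 13.45 ± 0.21 (SD, n = 4) and 13.18 ± 0.27 (n = 6) in wild type, and its partner Atp5a1 at 11.68 ± 0.16 and 11.58 ± 0.08. These differences of -0.26 and -0.09 were within the spread of the samples (limma adjusted p = 0.449 and 0.788).

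**Figure D2:**
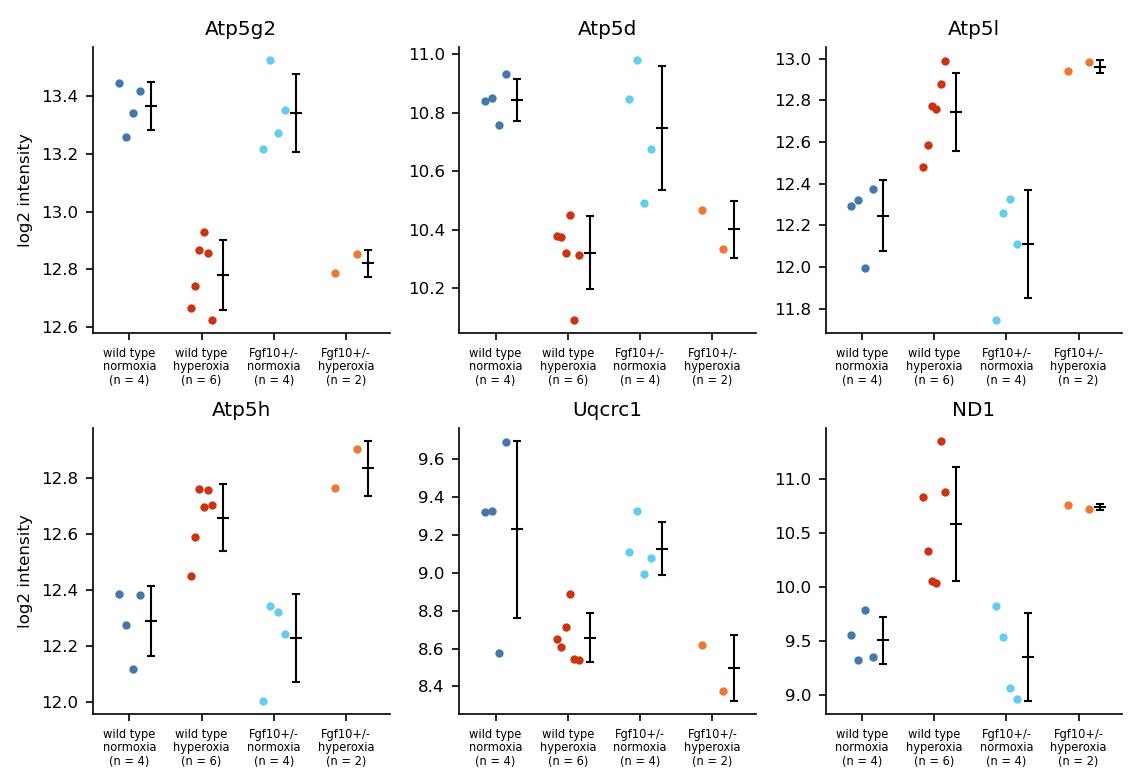
Log2 intensity of Atp5g2, Atp5d, Atp5l, Atp5h, Uqcrc1 and the mtDNA-encoded ND1 in every sample, with the mean and SD of each group in black; the vertical axes do not start at 0. Atp5g2 and Atp5d lie lower and Atp5l, Atp5h and ND1 higher in hyperoxia with no overlap in either genotype, and for Uqcrc1 wild-type normoxia replicate 3 (8.58) lies among the hyperoxia samples.

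Without overlap between the wild-type groups were 3 members with higher hyperoxia values (Atp5h, Atp5l and Ndufs1), against 3.13% of all genes, and 6 with lower values (Atp5d, Atp5g2, Cox4i1, Cox7a2l, Ndufa3 and Ndufb7), against 4.02%. The members' shares were 3.37% and 6.74%. 6 members were without overlap in the same direction in both genotypes (Atp5d, Atp5g2, Atp5h, Atp5l, Cox4i1 and Ndufb7), where 4.84% of all genes were. These shares were not counted for genes with a mean of at least 6, which more often had an unadjusted limma p under 0.05.

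Complex I, the NADH dehydrogenase, had 24 of 41 genes positive in wild type and a median of 0.06, and 40 of them lay within 0.5 of 0. Among its 6 measured core subunits, which carry the flavin and the iron-sulfur clusters, the differences ran from -0.27 for Ndufs8 to 0.28 for Ndufs1. Ndufs1, the largest iron-sulfur subunit, read 9.23, 9.23, 9.09 and 9.44 in normoxia and 9.46 to 9.62 with a median of 9.52 in hyperoxia. Its groups did not overlap in wild type, the highest normoxia and lowest hyperoxia samples lying next to each other, and limma gave an adjusted p of 0.316. The NADH-binding flavoprotein Ndufv1 was at 10.96 ± 0.23 (SD, n = 4) and 10.93 ± 0.12 (n = 6), a difference of -0.04 (95% interval -0.37 to 0.30).

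The accessory subunits of complex I were spread evenly in wild type, with 17 of 30 positive. Ndufa13, the brightest of the complex, was at 13.28 ± 0.20 (SD, n = 4) in wild-type normoxia and 13.24 ± 0.23 (n = 6) in hyperoxia, and Ndufab1, the acyl carrier protein, differed by 0.28 in wild type and 0.01 in Fgf10+/-. At the lower end stood Ndufc2 (-0.46, limma adjusted p = 0.237) with 11.77 ± 0.28 (SD, n = 4) against 11.31 ± 0.36 (n = 6) and overlapping groups. Ndufb7, an intermembrane-space subunit, read 11.88, 11.75, 12.003 and 11.91 in normoxia and 11.50 to 11.65 in hyperoxia, all lower. Its difference was -0.30 (adjusted p = 0.249) in wild type and -0.21 (adjusted p = 0.621) in Fgf10+/-. The 4 assembly factors Ndufaf1 to Ndufaf4 lay between -0.39 (Ndufaf3) and 0.30 (Ndufaf1) in wild type.

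In complex II, succinate dehydrogenase, the catalytic flavoprotein Sdha was at 9.77 ± 0.34 (SD, n = 4) and 10.02 ± 0.12 (n = 6) in wild-type normoxia and hyperoxia, and the iron-sulfur subunit Sdhb at 11.43 ± 0.23 and 11.39 ± 0.15. Their differences were 0.25 and -0.04 (limma adjusted p = 0.512 and 0.922), and Sdhc and Sdhd, the membrane anchors, differed by 0.14 and 0.15. A second, dimmer Sdhb feature differed by -0.58, and a second Sdhc feature by 0.19.

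In complex III the most negative difference was that of Uqcrc1, a core protein of the matrix side. Uqcrc1 read 9.32, 9.33, 8.58 and 9.69 in wild-type normoxia and 8.54 to 8.88, with a median of 8.63, in hyperoxia, so that 3 of 4 normoxia samples lay above all hyperoxia samples. The difference of -0.57 did not pass (limma adjusted p = 0.122). Without normoxia replicate 3 it was -0.79 (adjusted p = 0.0191), which makes Uqcrc1 the 1 member called there. In Fgf10+/- the values of 9.11, 9.32, 8.99 and 9.08 lay above 8.62 and 8.37, a difference of -0.63 (adjusted p = 0.224). The other 7 genes of the complex, including the Rieske iron-sulfur protein Uqcrfs1 (0.12, adjusted p = 0.826), lay between -0.06 and 0.25, and all 10 features of the second core protein Uqcrc2 were higher, by 0.08 to 0.29. Uqcrh, the hinge protein and the brightest of the complex, was at 12.57 ± 0.04 (SD, n = 4) in wild-type normoxia, 12.66 ± 0.15 (n = 6) in hyperoxia, 12.51 ± 0.01 (n = 4) in Fgf10+/- normoxia and 12.80 ± 0.04 (n = 2) in hyperoxia. Its Fgf10+/- groups did not overlap, with a difference of 0.30 (limma adjusted p = 0.456).

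Complex IV, cytochrome c oxidase, had 9 of 19 genes positive in wild type and a median of -0.02. Its housekeeping subunit Cox4i1 read 13.37, 13.45, 13.33 and 13.32 in normoxia and 12.80 to 13.23 with a median of 12.98 in hyperoxia, all lower, a difference of -0.35 (limma adjusted p = 0.214). The Fgf10+/- values were 13.21, 13.26, 13.45 and 13.26 against 13.14 and 12.98, a difference of -0.23 (adjusted p = 0.605). Cox5a, which binds next to Cox4i1, was at 11.72 ± 0.56 (SD, n = 4) and 11.81 ± 0.16 (n = 6), a difference of 0.09, and Cox6a1 differed by -0.31 (adjusted p = 0.387). Cox7a2l, which helps join complexes III and IV, was lower in all hyperoxia samples of wild type (12.28 to 12.63 against 12.64 to 12.88), a difference of -0.24 (adjusted p = 0.37), and differed by 0.11 in Fgf10+/-. Its other features differed by -0.33 and -0.65 in wild type and by -0.01 and -0.29 in Fgf10+/-.

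The rule also took in 8 muscle, germ line or hypoxia isoforms, of which 6 had higher values in wild-type hyperoxia (median difference 0.41) and 7 in Fgf10+/- (median 0.46), none called by limma. The cardiac and skeletal isoform Cox6a2 differed by 0.63 and the testis isoform Cox6b2 by 0.68 in wild type (limma adjusted p = 0.222 and 0.196). Cox6b2 read 7.38, 6.82, 6.92 and 6.70 in normoxia and 7.25 to 8.51 in hyperoxia, so the groups overlapped only at normoxia replicate 1. The muscle isoforms Cox7a1 and Cox8b differed by 0.20 and -0.37 in wild type and by 0.04 and 0.50 in Fgf10+/-, and the testis isoform Cox7b2 by 0.47 and 0.55, none past the threshold. Of the widely expressed partners, Cox8a differed by 0.17 and 0.24, Cox6b1 by -0.14 and 0.29, Cox7a2 by -0.02 and 0.12, and Cox7b by 0.19 and 0.14. Ndufa4l2, a hypoxia-inducible relative of Ndufa4, read 8.28, 6.43, 6.53 and 5.92 in wild-type normoxia and 6.33 to 7.96 in hyperoxia, and 6.81, 5.36, 5.78 and 5.40 against 7.64 and 7.63 in Fgf10+/-. Its differences were 0.56 (adjusted p = 0.527) and 1.80 (SE 0.57, adjusted p = 0.115). Cox4i2, the isoform of Cox4i1 that is abundant in lung, read 6.87, 5.67, 5.63 and 5.47 against 5.68 to 6.77 in wild type, and 6.39, 5.18, 5.26 and 5.49 against 6.83 and 6.39 in Fgf10+/-. Its highest Fgf10+/- normoxia value (6.388) lay just under its lower hyperoxia value (6.392), and the differences were 0.35 (adjusted p = 0.597) and 1.03 (adjusted p = 0.209).

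Both genes were high on the arrays that were high in smooth muscle and pericyte markers: wild-type normoxia replicate 1, with the highest marker mean (8.31), also had the highest value of each. The same array had the highest means of fibroblast (10.43), cardiac and striated muscle (6.62), erythroid (8.77) and brown fat markers (5.27). These lists were not used as covariates, so which of the marker lists goes with the genes was not tested. Without that sample the wild-type differences were 1.05 for Ndufa4l2 (limma adjusted p = 0.138) and 0.67 for Cox4i2 (adjusted p = 0.218). With the marker mean as a covariate they turned to -0.16 and -0.12 (adjusted p = 0.802 and 0.83), and the Fgf10+/- differences became 0.59 for Ndufa4l2 and 0.24 for Cox4i2 (limma adjusted p = 0.411 and 0.756). Of the 13 markers, 12 were higher in wild-type hyperoxia with a median of 0.67 and 11 in Fgf10+/- with a median of 1.05.

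**Figure D3:**
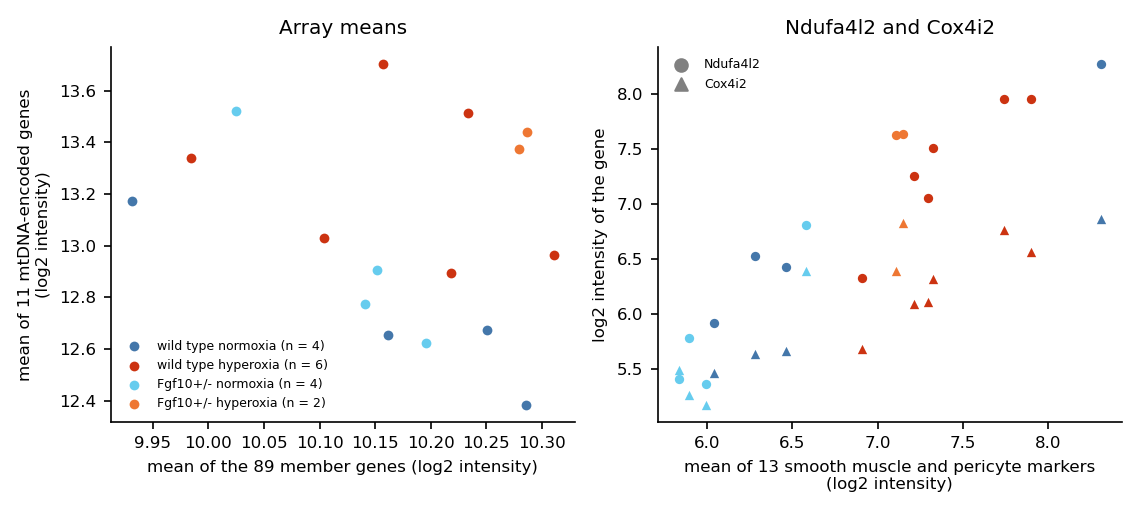
Left, mean log2 intensity of 11 mtDNA-encoded genes against the mean of the 89 member genes on each of the 16 arrays. Right, log2 intensity of Ndufa4l2 (circles) and Cox4i2 (triangles) against the mean of 13 smooth muscle and pericyte markers, in the same group colours; wild-type normoxia replicate 1 is the rightmost sample, at a marker mean of 8.31.

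Exposure of Fgf10+/- pups was measured with 2 hyperoxia samples, and values there carry wider errors (median 95% half-width of a member 0.47). Of the 89 members 64 were higher, with a median of 0.15 against -0.04 over all genes. Higher were 46.62% of all genes and 47.83% of genes with a mean of at least 6. No member was called by limma, where 2.45% of all genes were. At an unadjusted p under 0.05 there were 11 members (8 higher, 3 lower), or 12.4% against 16.7% of all genes. Of the 8299 genes with a mean of at least 6, 1889 were under 0.05. Among these 8299, 190 were called higher and 163 lower. Without overlap were 30 members higher, against 12.4% of all genes, and 9 lower, against 13.6%. Shares without overlap were not counted for genes with a mean of at least 6. The 30 higher ones made up 33.7% of the members, and 16 of them belonged to complex I, 1 to complex II, 3 to complex III, 4 to complex IV and 6 to complex V. Each of these counts rests on the same 2 hyperoxia samples, whose array means over the members were 10.28 and 10.29, against 10.03 to 10.20 in normoxia. Several marker means of replicates 1 and 2 were far apart. They were 11.53 and 10.40 for AT2 markers and 11.09 and 10.08 for alveolar type I markers. Endothelial markers were at 8.245 and 9.625, and club and secretory markers at 9.68 and 11.62. Smooth muscle and pericyte markers (7.15 and 7.11) and thymocyte markers (4.74 and 4.83) were close.

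By complex, the medians in Fgf10+/- were 0.21 for complex I (32 of 41 higher), 0.20 for complex II (4 of 4), 0.22 for complex III (7 of 8), 0.12 for complex IV (14 of 19) and -0.09 for complex V (7 of 17). Ndufa5 and Ndufb2, accessory subunits of complex I, were at 10.69 ± 0.08 and 10.82 ± 0.31 in normoxia (SD, n = 4) and at 11.16 ± 0.09 and 11.38 ± 0.03 in hyperoxia (n = 2). Their differences of 0.48 and 0.56 did not pass (limma adjusted p = 0.228 and 0.262). A second, dimmer Ndufa5 feature differed by only 0.045, and a second Ndufb2 feature by 0.53. The assembly factor Ndufaf1 read 6.63, 6.88, 6.29 and 6.49 against 7.32 and 7.10, a difference of 0.64 (adjusted p = 0.215), and the complex III subunit Uqcr10 differed by 0.51 (adjusted p = 0.295). Cox8c, a testis isoform near the lower end of the array's range, read 2.87, 4.19, 3.65 and 3.87 against 2.31 and 1.83, which is -1.58 (adjusted p = 0.0776). At such values the size of a difference cannot be trusted, since no detection call was given.

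The 2 exposures share no samples, and their differences were set side by side. They had the same sign in 70 of 89 members, 47 higher and 23 lower in both, or 78.7%, against 68.1% of all genes and 80.5% of genes with a mean of at least 6. In complex V the sign was the same in 17 of 17 genes, and the Pearson correlation across its genes was 0.967, given as a description over genes that share the same arrays. It was 0.651 across the 41 genes of complex I, 0.927 across the 4 of complex II, 0.941 across the 8 of complex III and 0.401 across the 19 of complex IV. Over all genes it was 0.633, and over genes with a mean of at least 6 it was 0.85. All normoxia samples precede all hyperoxia samples in the series order. An effect of processing tied to oxygen would be in both differences and was not tested. Thymocyte and T cell markers were mostly lower in hyperoxia in both genotypes, and the agreement was not recomputed with their mean in the fit. The interaction, which tests whether the 2 exposures differ, called no member by limma (0.00965% of all genes). At an unadjusted p under 0.05 it had 1 member, Cox8c, against 4.11% of all genes.

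**Figure D4:**
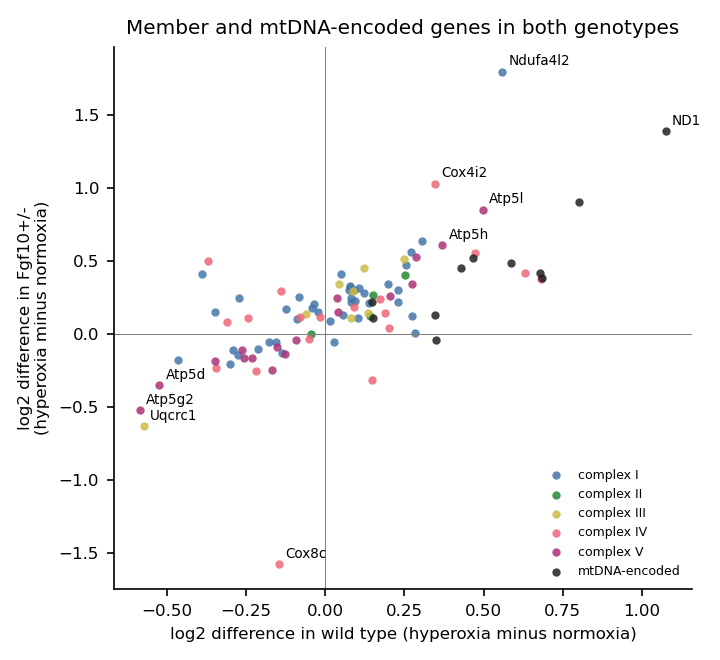
Log2 difference (hyperoxia minus normoxia) in Fgf10+/- against that in wild type for the 89 member genes, coloured by complex, and for 11 mtDNA-encoded genes in black. The 17 complex V genes lie to the lower left or the upper right of 0, from Atp5g2 (-0.58 and -0.52) to Atp5l (0.50 and 0.85), while Ndufa4l2 (0.56 and 1.80) and Cox8c (-0.15 and -1.58) lie away from the rest.

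Genotype was compared within each oxygen level. In normoxia no member was called by limma, where 0.00965% of all genes were. At an unadjusted p under 0.05 there were 0 members, against 6.03% of all genes and 407 of the 8299 genes with a mean of at least 6. Of the 89 members 39 were higher in Fgf10+/-, as were 47.89% of all genes, with a median of -0.02 against -0.01 over all genes. The differences ran from -0.95 for Ndufa4l2 (95% interval -1.93 to 0.03, adjusted p = 0.826) to 0.31 for the muscle isoform Cox7a1, and Cox7a2l was lower in all 4 Fgf10+/- samples (12.39 to 12.57 against 12.64 to 12.88, adjusted p = 0.895). Among the smallest p-values in normoxia were also those of the accessory subunit Ndufa6 (-0.34, limma adjusted p = 0.895) and of Uqcr11, a small subunit of complex III (0.23, adjusted p = 0.922).

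In hyperoxia 74 of 89 members were higher in the 2 Fgf10+/- samples than in the 6 wild-type samples. So were 52.75% of all genes and 57.21% of genes with a mean of at least 6. The member median was 0.14, against 0.02 over all genes and 0.04 over genes with a mean of at least 6. No member was called by limma (0.0% of all genes). Only Cox8c had an unadjusted p under 0.05 (-1.66, adjusted p = 0.814), against 4.37% of all genes. Of the 8299 genes with a mean of at least 6, 147 were under 0.05. Complex I had 36 of 41 genes higher and a median of 0.17, and the 4 assembly factors of complex I were higher by 0.33 to 0.55, with Ndufaf1 at 0.48 (95% interval -0.04 to 0.99). The accessory subunit Ndufa2 was at 12.31 ± 0.14 (SD, n = 6) in wild type and 12.58 ± 0.04 (n = 2) in Fgf10+/-, without overlap, a difference of 0.26 (limma adjusted p = 1.0). Array means over all members overlapped: 10.28 and 10.29 in Fgf10+/- lay within the wild-type range of 9.98 to 10.31. The 95% intervals of single members had a median half-width of 0.45.

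The mtDNA-encoded subunits were described as the partners of these genes, from a list of 13 of which 11 were measured. All 11 had higher values in wild-type hyperoxia, as 41.7% of all genes did, and 5 had an unadjusted p under 0.05, against 18.2% of all genes. 1 of the 11 was called in each genotype, where 3.13% of all genes in wild type and 2.45% in Fgf10+/- were. ND1, a proton-pumping subunit of complex I, read 9.56, 9.33, 9.79 and 9.35 in wild-type normoxia and 10.04 to 11.35, with a median of 10.58, in hyperoxia. In Fgf10+/- it read 9.83, 9.54, 9.07 and 8.97 against 10.76 and 10.72, so hyperoxia lay above normoxia in every sample of both genotypes. ND1 rose by 1.08 in wild type (SE 0.26, limma adjusted p = 0.0315) and by 1.39 in Fgf10+/- (SE 0.35, adjusted p = 0.0447), with an interaction of 0.31 (95% interval -0.60 to 1.23). The wild-type call did not pass in 6 of 16 fits that left out 1 sample, those without normoxia replicates 1, 2 or 4 or hyperoxia replicates 1, 5 or 6 (1.02, 0.92 and 1.02 without these 3), and the Fgf10+/- call did not pass in 11 of 16, among them those without either hyperoxia sample (adjusted p = 0.227 and 0.206).

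ND3, of the same complex, differed by 0.80 in wild type and 0.91 in Fgf10+/- (limma adjusted p = 0.0923 and 0.175), and COX2, the copper-binding subunit of complex IV, by 0.68 and 0.42 (adjusted p = 0.0661 and 0.456). The smallest wild-type differences were those of CYTB (0.15) and ND4 (0.15), and in Fgf10+/- ND5 was the only negative one, at -0.04. The features of COX2 and ATP8 carry the same transcript record in the probe annotation. COX2 reached 15.63, within 0.5 of the highest array value, so its difference may be understated. Array means of the 11 genes overlapped between conditions, at 12.38 to 13.17 in wild-type normoxia, 12.89 to 13.70 in wild-type hyperoxia, 12.62 to 13.52 in Fgf10+/- normoxia and 13.37 and 13.44 in Fgf10+/- hyperoxia. In both normoxia groups the array with the highest mtDNA-encoded mean had the lowest mean of the nuclear members: 13.17 and 9.93 in wild-type replicate 3, and 13.52 and 10.03 in Fgf10+/- replicate 1. Wild-type hyperoxia did not show this. There replicate 5 had the highest mtDNA-encoded mean (13.70, members 10.16) and replicate 1 the lowest member mean (9.98, mtDNA-encoded 13.34).

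Other genes of mitochondrial energy metabolism were counted from written gene lists. Beside each count stand the shares of all genes called, 3.13% in wild type and 2.45% in Fgf10+/-. Of 10 genes for cytochrome c and electron carriers 1 rose in both genotypes, Hccs, which attaches haem to cytochrome c: its single feature read 14.02, 13.73, 14.60 and 13.67 in wild-type normoxia and 14.94 to 15.74 in hyperoxia, within 0.5 of the highest array value, so its difference may be understated. Hccs rose by 1.31 in wild type (SE 0.21, limma adjusted p = 0.00244) and by 1.23 in Fgf10+/- (adjusted p = 0.0336, not passed without either Fgf10+/- hyperoxia sample, at 0.189 and 0.176, or without Fgf10+/- normoxia replicates 1, 2 or 4, at 0.0632, 0.0758 and 0.0682). Cytochrome c itself, Cycs, was at 10.57 ± 0.52 (SD, n = 4) and 10.41 ± 0.17 (n = 6) in wild type. Of 45 further assembly factors 0 were called by limma in wild type, against 3.13% of all genes, and 4 had an unadjusted p under 0.05, against 18.2%. In Fgf10+/- Timmdc1, a complex I assembly factor, fell by 1.86 (adjusted p = 0.0424), with a normoxia value of 10.00 in replicate 1 against 7.79 to 8.50 in the other 3. Timmdc1 did not pass in 9 of 16 fits that left out 1 sample: those without Fgf10+/- hyperoxia replicate 1 or 2 (limma adjusted p = 0.265 and 0.145), Fgf10+/- normoxia replicate 4, wild-type hyperoxia replicates 2, 5 or 6, or wild-type normoxia replicates 2, 3 or 4. The mean of its features gave -0.80 (adjusted p = 0.277). Of 49 genes of the large mitochondrial ribosomal subunit Mrpl9 fell in both, by 0.68 and 0.89 (limma adjusted p = 0.0405 and 0.0496), where 3.13% and 2.45% of all genes were called. On leaving out 1 sample the Mrpl9 call passed in only 4 of 16 fits in wild type (without Fgf10+/- normoxia replicates 1, 2 or 3 or wild-type hyperoxia replicate 5) and 2 of 16 in Fgf10+/- (without Fgf10+/- normoxia replicate 3 or wild-type hyperoxia replicate 5). Over all alternatives its adjusted p ran from 0.00733 to 0.126 and from 0.0113 to 0.251 by limma.

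Among 15 mitochondrial antioxidant and stress genes 1 uncoupling protein gene was called in each genotype, where 3.13% and 2.45% of all genes were. Ucp3 fell by 0.73 in wild type (limma adjusted p = 0.0332) and differed by -0.69 in Fgf10+/- (adjusted p = 0.149), and Ucp2 differed by -0.83 in wild type (adjusted p = 0.0582) and fell by 1.23 in Fgf10+/- (adjusted p = 0.0447). The Ucp3 call passed in 9 of 16 fits that left out 1 sample, lost without wild-type hyperoxia replicates 1, 2, 3 or 5 or normoxia replicates 2, 3 or 4, and the mean of its features gave -0.49 (limma adjusted p = 0.271). The Ucp2 call passed in 3 of 16, those without wild-type hyperoxia replicates 1 or 5 or wild-type normoxia replicate 1, and was lost without either Fgf10+/- hyperoxia sample (limma adjusted p = 0.124 and 0.32). None of 18 tricarboxylic acid cycle genes and none of 18 regulators of mitochondrial biogenesis were called by limma in either genotype. Their counts at an unadjusted p under 0.05 were 2 and 3 in wild type, against 18.2% of all genes, and 1 and 6 in Fgf10+/-, against 16.7%. The smallest p-values in wild type were those of Idh3a and Idh3g, subunits of isocitrate dehydrogenase (0.54 and -0.31, limma adjusted p = 0.125 and 0.262), of Esrrg, an oestrogen-related nuclear receptor (-0.61, adjusted p = 0.167), and of Ssbp1, the mtDNA single-strand binding protein (0.38, adjusted p = 0.212). In Fgf10+/- these genes differed by 0.45, -0.31, -0.74 and 0.55.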

How the data were processed

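Total RNA of 16 AT2 samples was hybridised to 1-colour Agilent arrays. The deposited values are log2 intensities that the authors had already normalized between arrays: the sorted columns differed by at most 0.204. Neither the software nor the background correction was stated in the labels read. The log2 scale was read from the values. Of 62976 features 65 with a missing value were left out and 31439 with a gene symbol were kept. Symbols were updated through RefSeq (GRCm38.p6), and the brightest feature stood for each of 20725 genes. Group means of all 16 samples were fitted by limma's moderated linear model (version 3.58.1, R 4.3.3), with Benjamini-Hochberg adjustment over all genes and calls at an adjusted p under 0.05. The fit was tested on simulated data. Members named by rule were those called, the 3 with the smallest p in each direction of each comparison, the brightest of each complex, set core genes and all isoforms; of other lists, the called genes or the 2 with the smallest p in wild-type hyperoxia. Other members were named after their values were seen. The members and the gene lists were chosen with earlier results of these data known. Alternatives were median centring, the mean of a gene's features, a minimum mean of 6, the compared groups alone, trend and robust eBayes, array weights, a replicate block, marker means as covariates and leaving out each sample. The number of arrays limits the precision.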

Additional observations from a re-analysis of the deposited data

Results flagged for a closer look

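All 89 members and the array means of the 5 complexes and of the mtDNA-encoded genes were screened in the 3 groups of 4 to 6 samples. In 12 of 285 such groups of values (4.2%) 1 sample lay far from the others by Dixon's 95% criterion, which chance meets in about 1 in 20 groups. 7 of the 12 were in Fgf10+/- normoxia. Replicate 1 was low for 3 genes: Ndufa4 at 9.981 against 10.471 to 10.546 in the other 3 samples, Ndufb10 at 11.529 against 11.59 to 11.596, and Ndufc1 at 10.736 against 11.035 to 11.081. Replicate 2 was high for the peripheral stalk gene Atp5pb, at 10.143 against 9.84 to 9.858, and low for the membrane anchor Sdhc, at 8.986 against 9.159 to 9.182. Replicate 3 was high for Cox6c, at 12.78 against 12.364 to 12.394, and for Ndufc2, at 11.868 against 11.486 to 11.531.

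In wild-type normoxia Cox4i2, the lung isoform of a complex IV subunit, was at 6.869 in replicate 1 against 5.467 to 5.667 in the other 3 samples, and Cox6a2, a muscle isoform, was at 6.197 in replicate 4 against 6.746 to 6.829. Replicate 3 stood apart for Cox8a, a housekeeping complex IV subunit, at 13.475 against 13.257 to 13.283, and for the membrane anchor Sdhd, at 9.743 against 10.452 to 10.585. In wild-type hyperoxia Ndufs4, a complex I subunit, was at 9.29 in replicate 1 against 9.751 to 9.87 in the other 5.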

How the results depend on the processing

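Of the 89 members, 1 was called in wild-type hyperoxia by limma. Over all genes 649 of 20725 were called. The count was 5 of the 85 members with a mean of at least 6 (Atp5d, Atp5g2, Atp5h, Atp5l and Uqcrc1), where 1172 of all 8299 such genes were called. It was 3 with trend and robust eBayes and 2 with array weights, where 1000 and 841 of all genes were called. It was 0 with the mean of a gene's features (506 of all genes) and with only the compared groups (465). The thymocyte or the smooth muscle marker mean as a covariate also gave 0 (529 and 402 of all genes). Median centring called 1, Atp5l in place of Atp5g2, and 670 of all genes. It moved the median of all genes from -0.08 to 0.03 and that of the members from 0.04 to 0.16. Leaving out 1 sample gave 0 to 1 calls and a member median of -0.03 to 0.08. In Fgf10+/- the count of 0 became 1 with centring, 3 with the minimum mean, 3 with trend and robust eBayes, 3 with array weights, and 0 to 1 on leaving out 1 sample. Over all genes the Fgf10+/- count of 507 became 437 with centring, 792 of 8299 with the minimum mean, 692 with trend and robust eBayes and 721 with array weights. It was 332 with the mean of features, 261 with only the compared groups, and 157 and 107 with the thymocyte and smooth muscle means. Of the mtDNA-encoded genes 1 was called in wild type, against 3 with the minimum mean, 3 with trend and robust eBayes, 2 with array weights, 0 with only the compared groups or the smooth muscle mean, and 0 to 2 on leaving out 1 sample. In Fgf10+/- the 1 call became 0 with centring, the mean of features, only the compared groups and either covariate, and was 0 to 1 on leaving out 1 sample. With the replicate block the counts were 0 members and 0 mtDNA-encoded genes in each genotype, where 216 and 103 of all genes were called. Correlations between same-numbered samples (-0.16 to 0.24) gave no pairing. Signs reversed for Ndufa4l2 (-0.16) and Cox4i2 (-0.12) in wild type with the smooth muscle mean, and for Emc8 between genotypes in hyperoxia without Fgf10+/- hyperoxia replicate 2 (0.16, range -0.75 to 0.16). The complex V median crossed 0 with centring in Fgf10+/- (0.01 from -0.09; -0.01 from -0.13 in wild type), with the thymocyte mean (0.02 in wild type and 0.14 in Fgf10+/-) and without Fgf10+/- hyperoxia replicate 2 (range on leaving out 1 sample -0.10 to 0.0011). In wild type the medians of complex I (-0.03 to 0.10), complex III (-0.02 to 0.13) and complex IV (-0.11 to 0.08) also crossed 0 on leaving out 1 sample. No member was called between genotypes or in the interaction under any of these settings. For the counts of calls, the cause of each change was not tested. With the minimum mean limma was fitted to the 8299 genes alone, so both the adjustment and the estimate of the spread changed.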

Other observations

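Current RefSeq symbols place 8 further genes in the same families, listed on the array under older names, and none of them was called by limma. Of all genes 3.13% were called in wild-type and 2.45% in Fgf10+/- hyperoxia. Lower without overlap were 4.02% of all genes in wild type and 13.6% in Fgf10+/-. Ndufb1, an accessory subunit of complex I, differed between hyperoxia and normoxia by -0.43 in wild type and -1.15 in Fgf10+/- (limma adjusted p = 0.161), and its Fgf10+/- groups did not overlap. Ndufa11b differed by -0.50 in wild type (adjusted p = 0.178), without overlap, and by -0.31 in Fgf10+/-. The assembly factor genes Ndufaf5 and Ndufaf6 differed by -0.08 and -0.06 in wild type and by 0.43 each in Fgf10+/-, and Ndufaf8 by -0.55 and -0.57. The small ATP synthase subunits Atp5md and Atp5mpl differed by 0.17 and 0.04 in wild type and by 0.24 and 0.17 in Fgf10+/-.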
